A study of Homo sapiens with 8 samples.

Results

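The 58 genes described here are those that mark epithelial cells, mesenchymal cells or the extracellular matrix around them: keratins, cadherins, junction proteins, the transcription and splicing factors that set either state, collagens, laminins, integrins and matrix enzymes. They were taken by gene name from the array annotation, where they had 83 probes, out of 36337 gene names with 50599 probes. Where a gene had several probes, the one with the highest mean over the 8 arrays stood for it. The data are 8 one-colour Agilent arrays of RNA from a pair of thyroid lines, in 4 groups of 2 arrays. Nthy-ori 3-1 (ORI in the labels), an immortalized line of non-tumor follicular cells, received pre-miR-375, a synthetic mimic of miR-375, or a control. TT, a line from a medullary carcinoma, received AntagomiR-375, an oligonucleotide that blocks miR-375, or a control. Every culture was transfected for 48 h, at a labelled concentration of 5 nM for the pre-miR and 20 nM for the antagomiR, and the labels call the controls CTL without naming the reagent. Each line is a single line, so a difference between the lines is not a difference between follicular and medullary cells at large.

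Epithelial cells hold together through cadherins, claudins and desmosomes, and carry keratin filaments. Mesenchymal cells carry vimentin, make fibrillar collagen and are kept in that state by factors of the ZEB, SNAI and TWIST families. Newly made collagen leaves the endoplasmic reticulum in large carriers that need the COPII coat, of which SEC23A is a subunit. The miRNA that was added or blocked is shown with its seed, bases 2 to 8, in capitals, because the seed is the stretch that pairs with target messages; RefSeq places it at chr2:219001648-219001669 on the minus strand of GRCh38.p14.
hsa-miR-375-3p: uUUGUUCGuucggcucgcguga

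SEC23A, the reference for the transfections, had log2 intensities of 11.04 and 11.35 in controls and 9.53 and 10.08 with pre-miR-375, a difference of -1.39 (SE 0.123, n = 2 pairs, adjusted p = 0.00786). In TT it read 9.55 and 9.68 in controls and 10.24 and 10.29 with AntagomiR-375, a difference of 0.65 (SE 0.0977, n = 2 pairs, adjusted p = 0.0994). The control groups differed by -1.58 (SE 0.204, adjusted p = 0.00311), lower in TT. Spots well above background numbered 32071 to 37340 per array and none was saturated. The RNA integrity number was 8 for the TT controls and 9 for the other groups, so in TT it moved with the treatment, and its part in the TT differences was not tested. TT controls carried the C cell genes CALCA (18.49 and 18.61) and CHGA (16.71 and 16.98), and Nthy-ori 3-1 controls the follicular factors PAX8 (10.73 and 10.62) and FOXE1 (8.80 and 8.72). Other follicular genes went the other way: TG, thyroglobulin, read 9.13 and 9.13 in TT and 4.72 and 5.02 in Nthy-ori 3-1, and NKX2-1 read 12.35 and 12.21 in TT and was not well above background in Nthy-ori 3-1, while TSHR was not in either. Over the 7 follicular genes, the log2 of the summed intensities was 12.41 to 12.54 in TT controls and 11.08 to 11.14 in Nthy-ori 3-1 controls. By that sum, which lies close to the brightest gene of each line (NKX2-1 in TT and PAX8 in Nthy-ori 3-1), the list did not set the follicular line above TT. In Nthy-ori 3-1 cells CALCA read 3.91 and 3.57 in controls and 8.12 and 4.51 with pre-miR-375, and CHGA read 3.46 and 2.09 in controls and 4.91 and 5.13 with the mimic. Of the 5 C cell markers on the array, 1 was well above background on both Nthy-ori 3-1 control arrays and 3 on both pre-miR-375 arrays. The log2 of their summed intensities was 6.48 to 6.94 in these controls and 6.89 to 8.61 with pre-miR-375. The part of this in the results below was not tested.

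The first question was how the control groups of the lines differ. Of the 58 genes, 13 were higher and 33 lower in TT at an adjusted p of at most 0.05, where 14.8% of all 50599 probes were higher and 15.3% lower. That share includes dim probes. Over the 20547 probes with a mean log2 of at least 6 over the 8 arrays, 4981 were higher and 5665 lower. Of the 58 genes, not all of which reached that minimum, 13 were called higher and 22 lower. A probe can reach this minimum only through the line where it is high, and would then have to differ, so nothing is read from these counts. The median difference of the 58 was -1.95 on the log2 scale against -0.05 over all probes. TT was higher in 3 of 4 cadherins, in the adhesion molecule EPCAM and in the epithelial splicing factors ESRP1 and ESRP2, and lower in vimentin, 8 of 9 collagens and all 4 matrix glycoproteins, but several epithelial genes were lower in TT as well. Differences are TT minus Nthy-ori 3-1 on the log2 scale, tested in limma with n = 2 arrays per control group. Where one line was not well above background, a difference is given as a bound on the processed signal. With normexp background correction, which adds an offset of 50 to every signal, all 14 called genes with a bound kept direction and call, but each had a fold under its bound (CDH1 19.5, CLDN1 10.8, ITGA6 12.8 and KRT80 46.4), and 8 of the 27 called genes well above background on the 4 control arrays moved by over 1.5-fold. Each slide held a single line, and slide, line, medium and control reagent cannot be told apart. In RNA from whole cultures, fewer cells of a type and less RNA per cell cannot be told apart either.

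**Figure D1:**
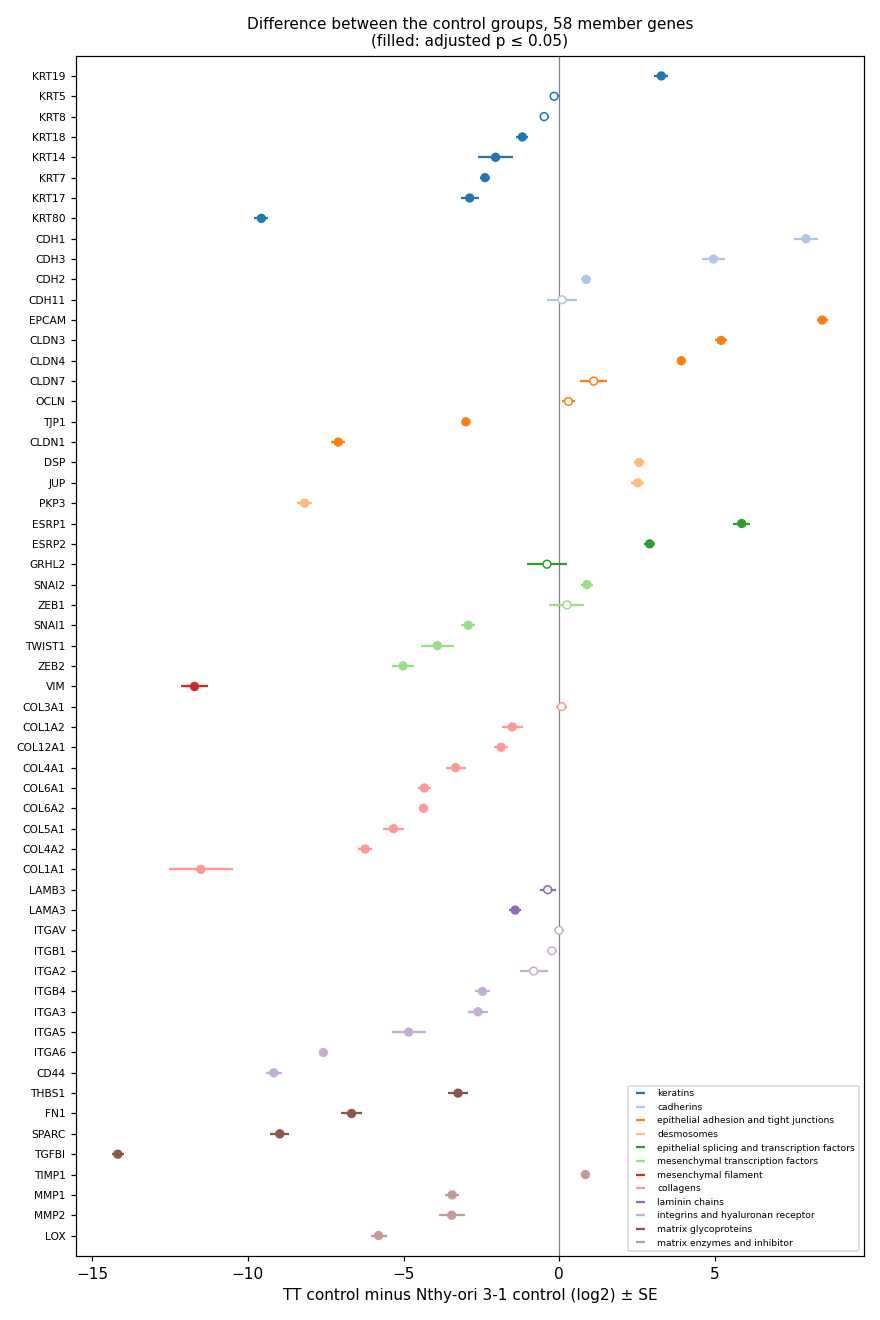
Difference between the control groups, TT minus Nthy-ori 3-1 on the log2 scale with its SE, for the 58 genes grouped by role (colours); filled points have an adjusted p of at most 0.05. EPCAM at 8.46 lies farthest to the right and TGFBI at -14.18 farthest to the left, and where one line was not above background the distance depends on values near background.

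Among the cadherins, 3 of 4 were higher in TT. CDH1, E-cadherin, was not well above background in Nthy-ori 3-1 and reached 10.24 and 10.28 in TT and 2.75 and 1.91 in Nthy-ori 3-1, at least 59.9-fold higher in TT (adjusted p = 9.55e-05). CDH3, P-cadherin, read 9.84 and 10.08 in TT and 4.53 and 5.46 in Nthy-ori 3-1, a difference of 4.96 (SE 0.359, adjusted p = 0.000381), and was well above background on 1 of the 2 Nthy-ori 3-1 arrays. CDH2, N-cadherin, the cadherin of neural and mesenchymal cells, was also higher in TT, with 13.33 and 13.30 in TT and 12.61 and 12.28 in Nthy-ori 3-1 and a difference of 0.87 (SE 0.165, adjusted p = 0.0128). N-cadherin was thus well above background in both lines, and E-cadherin in TT alone. CDH11 was not well above background in either, with 2.00 and 3.39 in TT and 2.74 and 2.46 in Nthy-ori 3-1.

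EPCAM had 15.12 and 15.25 in TT and 6.91 and 6.56 in Nthy-ori 3-1, a difference of 8.46 (SE 0.176, adjusted p = 6.2e-06). The splicing factor ESRP1 was at least 44-fold higher in TT, with 9.86 and 9.78 in TT and 4.03 and 3.86 in Nthy-ori 3-1 and adjusted p = 8e-05, and ESRP2 differed by 2.91 (SE 0.176, adjusted p = 0.000204). The tight junction claudins CLDN3 (5.21) and CLDN4 (3.93) and the desmosome proteins DSP (2.57) and JUP (2.53, with 11.30 and 11.54 in TT and 8.90 and 8.89 in Nthy-ori 3-1) were higher in TT too. The opposite direction was found for CLDN1, at least 66-fold lower in TT with 2.52 and 2.17 in TT and 9.23 and 9.65 in Nthy-ori 3-1, for the desmosome protein PKP3 (4.10 and 3.45 in TT and 12.06 and 11.84 in Nthy-ori 3-1, a difference of -8.17, with 1 of the 2 TT arrays well above background) and for TJP1, the scaffold ZO-1 (-3.00). A second CLDN4 probe, dimmer and well above background on the 4 control arrays, read 4.24 and 4.53 in TT and 4.92 and 5.65 in Nthy-ori 3-1, a difference of -0.90 (adjusted p = 0.105), and with the mean of both probes CLDN4 differed by 1.51. The junction genes therefore split between the lines. OCLN read 7.16 and 7.02 in TT and 6.67 and 6.92 in Nthy-ori 3-1, a difference of 0.30 (SE 0.196, adjusted p = 0.358). CLDN7 differed by 1.11 (SE 0.433, adjusted p = 0.126) with one probe and 2.64 (adjusted p = 0.00213) with another. GRHL2, an epithelial transcription factor, was well above background on 1 of the 4 control arrays, in TT, with 2.32 and 4.41 in TT and 3.64 and 3.87 in Nthy-ori 3-1.

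Of 8 keratins, 1 was higher and 5 were lower in TT. KRT19 was the higher one, with 12.41 and 12.28 in TT and 9.34 and 8.78 in Nthy-ori 3-1 and a difference of 3.28 (SE 0.226, adjusted p = 0.00032). KRT80 was at least 306.5-fold lower, with 2.12 and 2.06 in TT and 11.60 and 11.72 in Nthy-ori 3-1. KRT7 (-2.38) and KRT18 (-1.18) were lower in TT and well above background in both lines. KRT8, the partner of KRT18 in simple epithelia, missed the threshold with -0.48 (SE 0.144, adjusted p = 0.0596). A second KRT8 probe gave -0.80 (adjusted p = 0.0919). Another probe named KRT8, described below, lies nearer the KRT18 probes than the other KRT8 probes, and was higher in TT, 2.18 (adjusted p = 0.0013). The direction thus depended on the probe, and whether the outlying one reads KRT8 was not tested. KRT17 was above background on 1 Nthy-ori 3-1 array, and KRT5 and KRT14 on no control array, so that the call for KRT14 rests on values under background. KRT5 had 1.97 and 1.92 in TT and 2.08 and 2.13 in Nthy-ori 3-1.

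VIM, vimentin, was well above background on all control arrays, with 5.08 and 6.02 in TT and 17.26 and 17.29 in Nthy-ori 3-1, a difference of -11.72 (SE 0.438, adjusted p = 3.96e-05). Of 5 mesenchymal transcription factors, ZEB2 was at least 20.1-fold lower in TT, with 2.29 and 3.14 in TT and 7.69 and 7.77 in Nthy-ori 3-1, and TWIST1 at least 12.9-fold lower. SNAI1 had a difference of -2.92 (SE 0.22, adjusted p = 0.000443). SNAI2 was higher in TT, 0.90. ZEB1 differed by 0.25 (SE 0.562, adjusted p = 0.82), and its Nthy-ori 3-1 control arrays, at 7.65 and 9.36, lay on either side of the TT arrays.

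The matrix genes were lower in TT with few exceptions. Of 9 collagens, 8 were lower and none higher. COL1A1, a chain of fibrillar type I collagen, had 2.35 and 2.23 in TT and 14.21 and 13.39 in Nthy-ori 3-1, at least 1355-fold lower in TT. The basement membrane chain COL4A2 differed by -6.23 (SE 0.225, adjusted p = 3.53e-05), and the smallest difference among collagens above background was that of COL12A1, -1.87 (SE 0.225, adjusted p = 0.00241). COL1A2 was below background in both lines although it passed the test, and COL3A1, with 2.09 and 1.74 in TT and 1.87 and 1.80 in Nthy-ori 3-1, was below background and did not pass. All 4 matrix glycoproteins were lower: TGFBI, an adhesion protein induced by TGF-beta, by at least 6037-fold with 1.77 and 1.78 in TT and 16.02 and 15.90 in Nthy-ori 3-1, and SPARC with a difference of -8.98 (SE 0.312, adjusted p = 3.05e-05), fibronectin FN1 with -6.67 (SE 0.341, adjusted p = 0.000114) and THBS1 with -3.25 (SE 0.315, adjusted p = 0.00111). THBS1 was well above background in both lines, with 8.10 and 8.19 in TT and 10.97 and 11.82 in Nthy-ori 3-1. The collagen crosslinking enzyme LOX was at least 27.7-fold lower, with 2.56 and 2.22 in TT and 8.47 and 7.92 in Nthy-ori 3-1, while the protease inhibitor TIMP1 was higher in TT, with 12.06 and 11.98 in TT and 11.20 and 11.16 in Nthy-ori 3-1 and 0.84 (SE 0.123, adjusted p = 0.0049).

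Of 8 receptors for matrix, 5 were lower in TT and none higher. ITGA6, a laminin receptor chain, was at least 71.8-fold lower with 2.00 and 1.97 in TT and 9.52 and 9.61 in Nthy-ori 3-1. ITGAV had 11.10 and 11.05 in TT and 11.01 and 11.15 in Nthy-ori 3-1, a difference of -0.0065 (SE 0.15, adjusted p = 0.991), and ITGB1 differed by -0.23 (SE 0.165, adjusted p = 0.396). CD44, the hyaluronan receptor, read 4.72 and 4.83 in TT and 13.63 and 14.25 in Nthy-ori 3-1, a difference of -9.17 (SE 0.254, adjusted p = 1.49e-05) with the probe at chr11:35253812-35253871 (hg19), but of -0.047 (adjusted p = 0.936) with another probe, at chr11:35244791-35244850, which read 7.27 and 7.57 in TT and 7.42 and 7.51 in Nthy-ori 3-1. The size of the CD44 difference thus depended on the probe. The laminin chain LAMA3 was lower in TT, with 6.59 and 6.33 in TT and 7.88 and 7.86 in Nthy-ori 3-1 and -1.41 (SE 0.198, adjusted p = 0.0042), and LAMB3 had 12.32 and 12.57 in TT and 12.49 and 13.13 in Nthy-ori 3-1, a difference of -0.37 (SE 0.262, adjusted p = 0.397). Over the 46 called genes, 15 had 18 further probes, of which 14 had the same direction and 12 of those passed. The 4 of opposite direction, none past the threshold, were the CLDN4 probe, one of COL5A1 (0.87, adjusted p = 0.171), and probes of KRT14 and MMP2 above background on no control array.

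The second question was what pre-miR-375 changed in Nthy-ori 3-1 cells. Of the 58 genes, 46 had a mean log2 intensity of at least 6 in the line and were tested, all of them well above background on the 4 arrays. Of these, 10 were higher and 13 lower with pre-miR-375 at an adjusted p of at most 0.05, against 8.72% of 20758 probes higher and 10.4% lower. Their median difference was -0.10 against 0.03 over all probes. Lower genes included 3 of 5 tested keratins, CD44, THBS1 and fibronectin, and higher ones 4 of 7 tested collagens, SPARC and JUP. The calls depended on the fit: with no minimum on intensity, with a minimum set on detection or without the replicate block, 0 of the 58 genes passed in limma (2171 to 7413 probes had an unadjusted p under 0.05). These fits use the same arrays and give the same differences, so the direction of the 23 could not change in them. With a pair left out the difference is that of the other pair, and each of the 23 kept its direction. Calls favour genes whose pairs are alike, so this is no separate check. A fit has 1 residual degree of freedom, so these p-values rest on the spread borrowed from all probes.

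**Figure D2:**
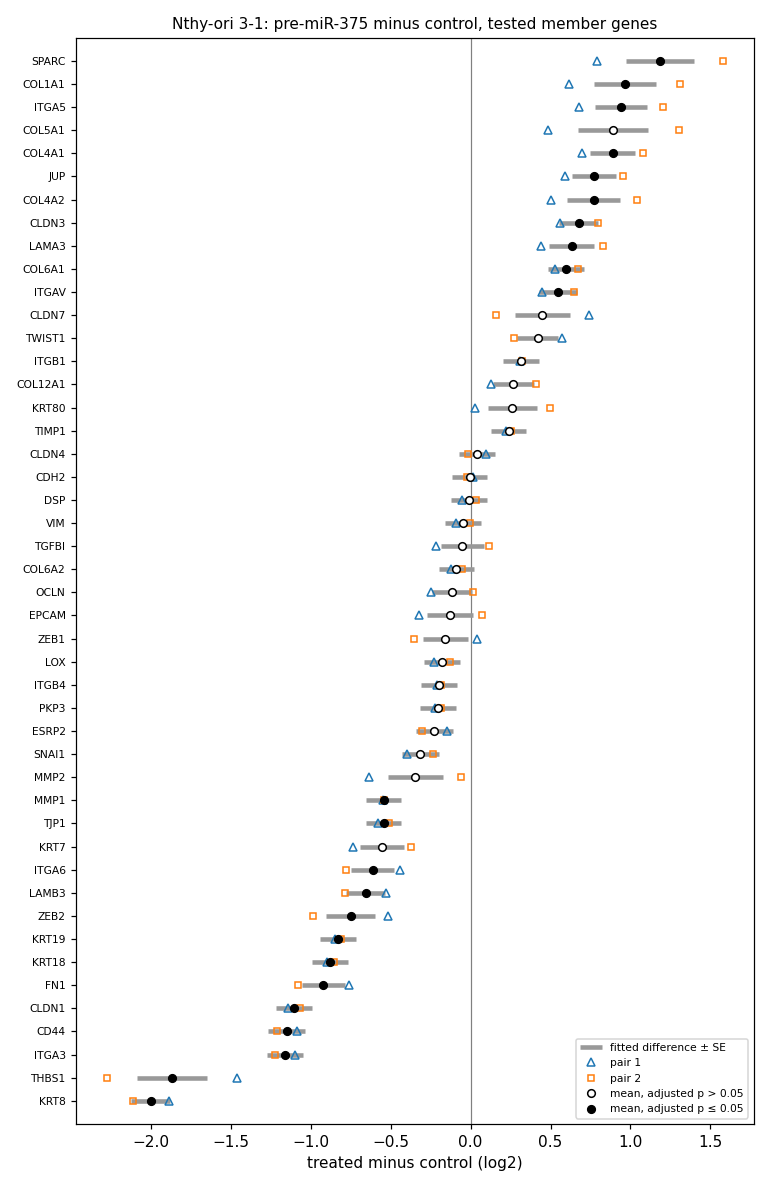
Difference between pre-miR-375 and control in Nthy-ori 3-1 cells (log2) for the 46 tested genes, with both pairs (open triangles and squares), the fitted mean (circle, filled at an adjusted p of at most 0.05) and its SE (grey bar). KRT8 at -2.00 and SPARC at 1.18 are the ends of the range, and VIM, DSP and CDH2 lie near 0.

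Of 5 tested keratins, 3 were lower and none higher. KRT8 fell from the control to the treated arrays, with 12.98 and 12.92 in controls and 11.09 and 10.81 with pre-miR-375, a difference of -2.00 (SE 0.122, n = 2 pairs, adjusted p = 0.00494). A second probe gave -2.65 (adjusted p = 0.00719). Another probe named KRT8, at chr12:53343241-53343300 (hg19), away from the other 2, gave 0.31 (adjusted p = 0.162). It lies nearer a KRT18 probe at chr12:53345577-53345636 than the other KRT8 probes, at chr12:53291026-53291085 and chr12:53294461-53294995. KRT18 read 16.12 and 16.50 in controls and 15.22 and 15.65 with pre-miR-375, a difference of -0.88 (SE 0.11, n = 2 pairs, adjusted p = 0.0136), and KRT19 9.34 and 8.78 in controls and 8.50 and 7.97 with pre-miR-375, a difference of -0.83 (SE 0.11, n = 2 pairs, adjusted p = 0.0151). KRT7 missed the threshold at -0.56 (SE 0.139, n = 2 pairs, adjusted p = 0.0552), and KRT80 had 0.26 (SE 0.154, n = 2 pairs, adjusted p = 0.285).

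Among junction genes, CLDN1 read 9.23 and 9.65 in controls and 8.09 and 8.58 with pre-miR-375, a difference of -1.10 (SE 0.111, n = 2 pairs, adjusted p = 0.00933), with both pairs lower. TJP1 was lower too, with 10.89 and 10.96 in controls and 10.31 and 10.45 with pre-miR-375 and -0.54 (SE 0.111, n = 2 pairs, adjusted p = 0.0359). CLDN3 moved the other way, with 8.07 and 7.61 in controls and 8.62 and 8.40 with pre-miR-375 and 0.68 (SE 0.123, n = 2 pairs, adjusted p = 0.028). JUP, plakoglobin, which links desmosomes and adherens junctions, read 8.90 and 8.89 in controls and 9.49 and 9.84 with pre-miR-375, a difference of 0.77 (SE 0.139, n = 2 pairs, adjusted p = 0.0272). The called junction genes thus moved in both directions. DSP (-0.012), PKP3 (-0.20), EPCAM (-0.13), OCLN (-0.12), CLDN4 (0.04) and CLDN7 (0.45) did not pass the test. CDH1 and ESRP1 were not well above background in this line before or after pre-miR-375.

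The mesenchymal side did not move as one group. VIM read 17.26 and 17.29 in controls and 17.17 and 17.28 with pre-miR-375, a difference of -0.047 (SE 0.112, n = 2 pairs, adjusted p = 0.789), and CDH2 12.61 and 12.28 in controls and 12.63 and 12.26 with pre-miR-375, a difference of -0.0052 (SE 0.11, n = 2 pairs, adjusted p = 0.979). ZEB2, a repressor of CDH1, was lower, with 7.69 and 7.77 in controls and 7.17 and 6.79 with pre-miR-375 and -0.75 (SE 0.154, n = 2 pairs, adjusted p = 0.0361). Of its other probes, one passed with -0.89 (adjusted p = 0.0272) and another did not, with -0.042 (adjusted p = 0.888) and pairs of opposite sign. ZEB1 (-0.16), SNAI1 (-0.31) and TWIST1 (0.42) did not pass. SNAI2 read 6.02 and 6.12 in controls and 4.74 and 5.23 with pre-miR-375, and its mean was under the intensity minimum, so it was not tested.

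Of 7 tested collagens, 4 were higher with pre-miR-375 and none lower. COL1A1 read 14.21 and 13.39 in controls and 14.83 and 14.70 with pre-miR-375, a difference of 0.96 (SE 0.193, n = 2 pairs, adjusted p = 0.0347). The type IV chains COL4A1, with 9.67 and 10.14 in controls and 10.37 and 11.22 with pre-miR-375 and 0.89 (SE 0.14, n = 2 pairs, adjusted p = 0.0205), and COL4A2, with 13.81 and 13.66 in controls and 14.32 and 14.70 with pre-miR-375 and 0.77 (SE 0.165, n = 2 pairs, adjusted p = 0.0398), rose together. The pair lies head to head on chromosome 13, where their promoter windows share 226 of 300 bases (chr13:110307108-110307407 and chr13:110307034-110307333, GRCh38.p14, RefSeq) and their starts are 127 bases apart. COL6A1 read 11.85 and 11.70 in controls and 12.38 and 12.37 with pre-miR-375, a difference of 0.60 (SE 0.115, n = 2 pairs, adjusted p = 0.0318). COL5A1 missed the threshold at 0.89 (SE 0.218, n = 2 pairs, adjusted p = 0.0527). COL12A1 (0.27) and COL6A2 (-0.089) did not pass.

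SPARC, which binds collagen, was higher, with 14.60 and 14.16 in controls and 15.39 and 15.74 with pre-miR-375 and 1.18 (SE 0.211, n = 2 pairs, adjusted p = 0.0268). THBS1 went down, with 10.97 and 11.82 in controls and 9.51 and 9.55 with pre-miR-375 and -1.87 (SE 0.217, n = 2 pairs, adjusted p = 0.0117), and so did FN1, with 11.22 and 10.82 in controls and 10.46 and 9.74 with pre-miR-375 and -0.92 (SE 0.132, n = 2 pairs, adjusted p = 0.0174). TGFBI did not pass, -0.051 (SE 0.133, n = 2 pairs, adjusted p = 0.81). The interstitial collagenase MMP1 read 6.10 and 6.57 in controls and 5.55 and 6.03 with pre-miR-375, a difference of -0.54 (SE 0.11, n = 2 pairs, adjusted p = 0.0352), and MMP2, TIMP1 and LOX did not pass.

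The matrix receptors also moved both ways. ITGA3 read 11.77 and 12.56 in controls and 10.67 and 11.34 with pre-miR-375, a difference of -1.16 (SE 0.114, n = 2 pairs, adjusted p = 0.00897), CD44 13.63 and 14.25 in controls and 12.55 and 13.04 with pre-miR-375, a difference of -1.15 (SE 0.114, n = 2 pairs, adjusted p = 0.00902). ITGA6 was lower too, with 9.52 and 9.61 in controls and 9.07 and 8.83 with pre-miR-375 and -0.61 (SE 0.134, n = 2 pairs, adjusted p = 0.0418). ITGA5, the fibronectin receptor chain, was higher, with 9.04 and 9.30 in controls and 9.71 and 10.51 with pre-miR-375 and 0.94 (SE 0.164, n = 2 pairs, adjusted p = 0.0255), and ITGAV read 11.01 and 11.15 in controls and 11.46 and 11.80 with pre-miR-375, a difference of 0.55 (SE 0.12, n = 2 pairs, adjusted p = 0.0415). The second CD44 probe gave -0.47 (adjusted p = 0.112). The laminin-332 chains went apart: LAMA3 rose, with 7.88 and 7.86 in controls and 8.31 and 8.69 with pre-miR-375 and 0.63 (SE 0.142, n = 2 pairs, adjusted p = 0.0437), while LAMB3 read 12.49 and 13.13 in controls and 11.96 and 12.34 with pre-miR-375, a difference of -0.66 (SE 0.124, n = 2 pairs, adjusted p = 0.0306). Over the 23 called genes, 7 had 9 further probes past the minimum, of which 8 had the same direction (6 of them past the threshold, not the second CD44 probe and a ZEB2 probe) and 1, the outlying KRT8 probe, the opposite one.

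**Figure D3:**
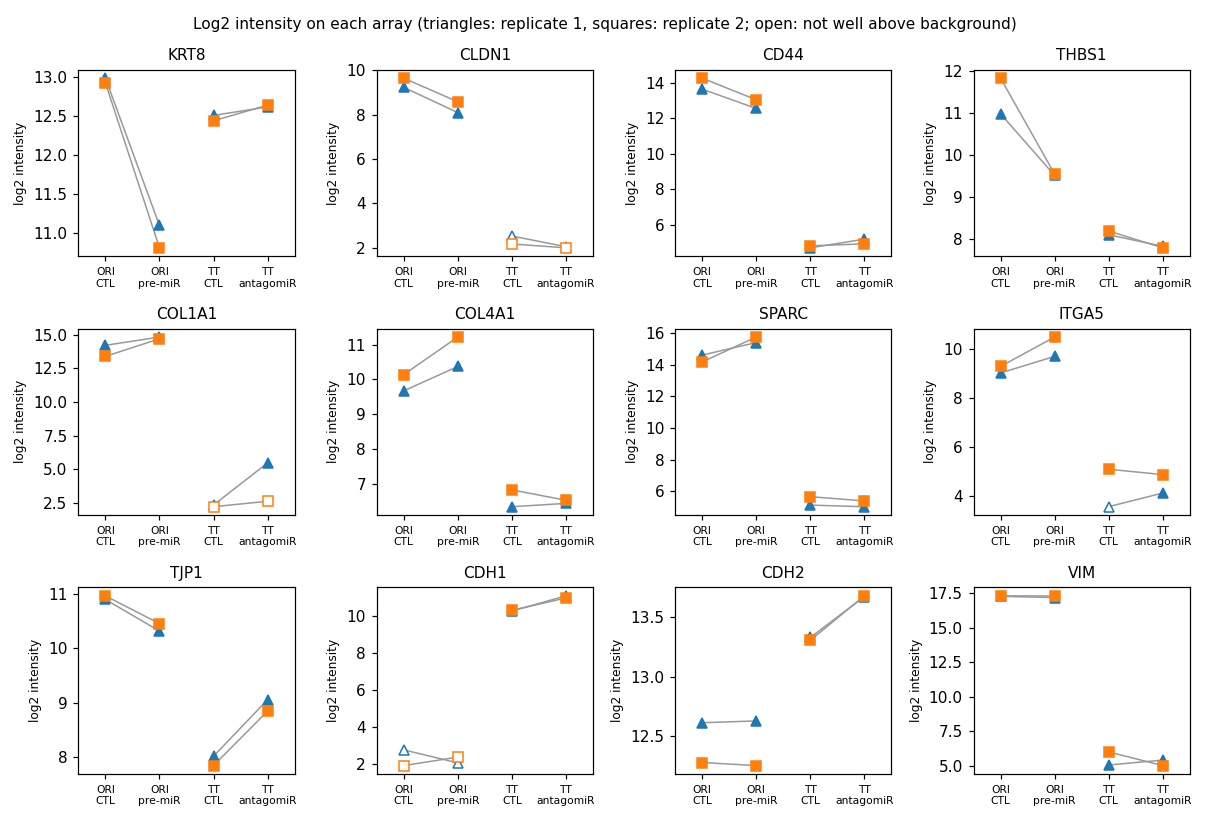
Log2 intensity on each of the 8 arrays for 12 genes, with replicate 1 as triangles, replicate 2 as squares, lines joining arrays of the same number in a line, and open symbols where a spot was not well above background; the vertical axes differ. KRT8 and THBS1 drop with pre-miR-375 and COL4A1 and SPARC rise, while VIM in Nthy-ori 3-1 lies far above VIM in TT.

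The letters CACCTG and CAGGTG, which are reverse complements of each other and can be bound by the ZEB and SNAI factors, were looked for on both strands in RefSeq promoter windows from 250 bases before to 50 after a start. They stood in 20.6% of 35116 windows of all genes and in 15 of 54 windows (27.8%) of the 33 genes of the 58 that had a window. By gene, they stood in at least 1 window of 3 of 8 genes called higher with pre-miR-375, 3 of 9 called lower and 6 of 16 not called, so matches were found in genes of either direction. The stretches of 30 bases that hold a match are shown for all 6 called genes that have one, the first 3 higher and the others lower with pre-miR-375, with the match in capitals (each from the 1 window of the gene that holds one; GRCh38.p14, written in the direction of the gene); a match is a description of the letters and not a binding site.
CLDN3, chr7:73770221-73770250, minus strand: cccacaaagccacaggCAGGTGcaggcgca
JUP, chr17:41786009-41786038, minus strand: tctggcccCACCTGccgagCAGGTGagcgc
LAMA3, chr18:23872939-23872968, plus strand: gccttcctCACCTGagtcaggcaggcccgg
TJP1, chr15:29969116-29969145, minus strand: ccggcgcgCAGGTGgcccggcctcgcccag
LAMB3, chr1:209652622-209652651, minus strand: cccacaggCAGGTGggcattgtggagctca
ITGA6, chr2:172427192-172427221, plus strand: tccataaaCACCTGtagaaatgaatgaatg
ITGA6, chr2:172427282-172427311, plus strand: cggtgcatCACCTGcacttctctttataac

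The last question was what AntagomiR-375 changed in TT cells. Of the 58 genes, 33 reached the intensity minimum, and 0 passed at an adjusted p of at most 0.05 with limma, against 0% of 20931 probes in either direction. An unadjusted p under 0.05 was found for 11 of the 33 and for 4516 probes in all. Values were higher for 22 of the 33 and lower for 11, with a median of 0.12 against -0.01 over all probes. Other settings passed 1 to 6 of these genes, all higher: TJP1 in 4 settings, CDH1 and CDH3 in 3 of them, and KRT18, KRT19 and CDH2 only with an intensity trend in the spread. Over all probes tested, those settings also called more higher than lower. The counts were 384 and 177 of 20931 with normexp background correction and 145 and 37 of 20936 with the deposited log2 values. They were 320 and 124 of 20931 with the 75th percentile and 722 and 460 of 20931 with the intensity trend.

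TJP1 had the largest difference, with 8.02 and 7.85 in controls and 9.06 and 8.85 with AntagomiR-375, 1.02 (SE 0.0957, n = 2 pairs, adjusted p = 0.0878). The cadherins followed: CDH3 read 9.84 and 10.08 in controls and 10.75 and 10.68 with AntagomiR-375, 0.76 (SE 0.123, n = 2 pairs, adjusted p = 0.107), and CDH1 10.24 and 10.28 in controls and 11.06 and 10.95 with AntagomiR-375, 0.74 (SE 0.102, n = 2 pairs, adjusted p = 0.098). For these 3 genes the groups did not overlap, but the share of all probes without overlap was not counted, so nothing is read from it. CDH2, the other cadherin tested, was higher in both pairs as well, 0.36 (SE 0.0955, n = 2 pairs, adjusted p = 0.161). KRT19 read 12.41 and 12.28 in controls and 12.84 and 12.84 with AntagomiR-375, 0.50 (SE 0.1, n = 2 pairs, adjusted p = 0.124), and KRT18 15.09 and 15.17 in controls and 15.63 and 15.52 with AntagomiR-375, 0.44 (SE 0.106, n = 2 pairs, adjusted p = 0.145). LAMA3 had 6.59 and 6.33 in controls and 6.80 and 6.83 with AntagomiR-375, 0.36 (SE 0.119, n = 2 pairs, adjusted p = 0.202). A second LAMA3 probe, under the intensity minimum and so untested, went the other way. It read 4.76 and 5.01 in controls and 4.00 and 4.51 with AntagomiR-375, well above background on the 4 TT arrays. The direction for LAMA3 thus depended on the probe.

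All 5 collagens that were tested, each by its brightest probe, had lower values with AntagomiR-375, none past the threshold. COL6A1 read 7.16 and 7.75 in controls and 6.60 and 6.81 with AntagomiR-375, -0.75 (SE 0.134, n = 2 pairs, adjusted p = 0.112), and COL12A1 9.15 and 9.35 in controls and 8.84 and 8.90 with AntagomiR-375, -0.38 (SE 0.101, n = 2 pairs, adjusted p = 0.158). COL4A2 (-0.27), COL5A1 (-0.13) and COL4A1 (-0.10) were smaller, and the pairs of the last 2 disagreed in sign. A second COL5A1 probe, under the minimum and untested, was higher in both pairs (0.13 and 0.79). A second COL12A1 probe, also untested, was lower in both (-0.38 and -0.70). Both probes were well above background on all TT arrays. Of the untested collagens, COL1A2, COL3A1 and COL6A2 were well above background on no TT array, and COL1A1 only on the first AntagomiR-375 array. THBS1 differed by -0.34 (SE 0.1, n = 2 pairs, adjusted p = 0.18), and by -0.06 with a second probe. EPCAM (0.12), ZEB1 (0.017) and SNAI1 (0.0047) had values close to 0. VIM was under the minimum in TT. Among dim genes, KRT80 read 2.12 and 2.06 in controls and 4.10 and 3.98 with AntagomiR-375, and LOX 2.56 and 2.22 in controls and 3.78 and 3.29 with AntagomiR-375, both untested.

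**Figure D4:**
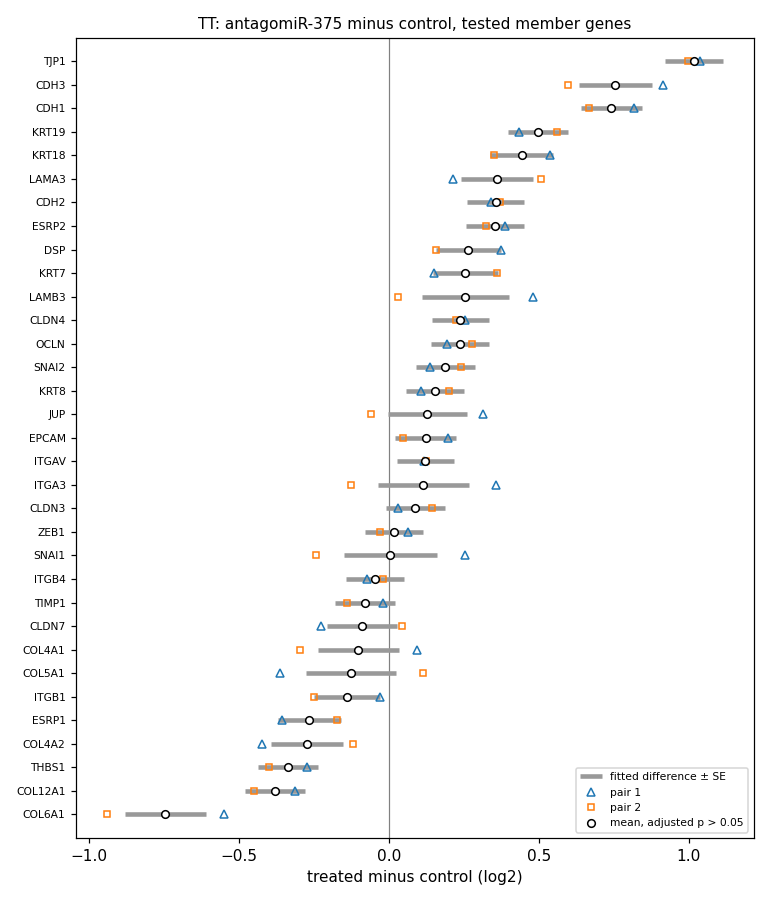
Difference between AntagomiR-375 and control in TT cells (log2) for the 33 tested genes, drawn as both pairs (open triangles and squares), the fitted mean (open circle) and its SE (grey bar). The range runs from COL6A1 at -0.75 to TJP1 at 1.02, and no gene had an adjusted p of at most 0.05.

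The comparisons within the lines share no array. Of the 13 genes lower with pre-miR-375 in Nthy-ori 3-1, 7 were tested in TT, where 5 were higher in both AntagomiR-375 pairs and 1 lower in both. Of all 1727 probes lower with pre-miR-375 and tested in TT, 50.9% were higher in both pairs and 25.4% lower in both, against 31.3% and 36.3% of all 20931 probes tested in TT. Of the 10 genes higher with pre-miR-375, 7 were tested in TT, where 3 were higher in both pairs and 2 lower in both, while of all 1510 such probes 22.9% were higher in both and 52.5% lower in both. With 7 genes in each set, these counts are descriptions and nothing particular to the 58 genes is read from them. TJP1, KRT18 and KRT19 were lower in the first comparison and higher in value in the second, COL6A1 the reverse, and THBS1 was lower in both. These counts use the brightest probe. A second THBS1 probe had AntagomiR-375 pairs of 0.08 and -0.20. The outlying KRT8 probe (-0.52 and -0.37) and the second LAMA3 probe (-0.76 and -0.51) were lower in both pairs. Second probes of KRT8 (0.20 and 0.10) and KRT18 (0.35 and 0.16) were higher in both.

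A wider list of 110 genes of collagen export, other matrix and adhesion, epithelial junctions and TGF-beta signalling gave 8 higher (9.2%) and 12 lower (13.8%) of 87 tested with pre-miR-375, shares near the 8.72% and 10.4% of all probes, and 0 of 74 with AntagomiR-375, where 23 had an unadjusted p under 0.05 in limma. The lowest fitted values were those of MAL2, a protein of apical transport, with 7.66 and 8.36 in controls and 3.73 and 5.68 with pre-miR-375 and -3.30 (SE 0.31, n = 2 pairs, adjusted p = 0.00849), of which the first pre-miR-375 array was not well above background, and CTGF, a matricellular protein, -1.82 (SE 0.111, n = 2 pairs, adjusted p = 0.00494). The highest were MMP3, stromelysin, with 5.08 and 6.49 in controls and 7.07 and 7.65 with pre-miR-375 and 1.57 (SE 0.219, n = 2 pairs, adjusted p = 0.0166), and CDS1, a phospholipid enzyme, 1.53 (SE 0.112, n = 2 pairs, adjusted p = 0.00615). Between the control groups, each of the 110 was read by its brightest probe, while the share over all probes includes dim ones. Of the 110, 19 (17.3%) were higher and 56 (50.9%) lower in TT, against 14.8% and 15.3% of all 50599 probes. Among them were RAB25, a GTPase of epithelial recycling, at least 251-fold higher, and CYR61, another matricellular protein, at least 3243-fold lower.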

How the data were processed

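RNA of Nthy-ori 3-1 and TT cells was hybridized to 8 one-colour Agilent arrays. The authors deposited each array's Feature Extraction 10.10.1.1 output, with a processed, background-subtracted intensity per spot, and a table of log2 values; per the labels they used limma. Here the processed intensity was taken to log2, control spots and outlier spots (341 to 428 per array) were left out, repeated spots were averaged per probe, and all 8 arrays were brought to the same quantiles (limma 3.58.1, R 4.3.3). lmFit and eBayes were run on the lines separately, blocking on the replicate number, which is the slide, over probes with a mean log2 of at least 6. The study's methods give that value as a cut for selecting genes, beside a fold change, and do not describe a filter before the fit. Here it was set before the fit, on the processed intensity, so it shaped the spread borrowed from all probes. Same-numbered arrays deviated together (r = 0.826 in Nthy-ori 3-1 and 0.38 in TT, over probes). The control groups were compared over all 50599 probes in a fit of 8 arrays with slide as a random block (correlation 0.501). P-values were adjusted by Benjamini-Hochberg over all probes tested. "At least N-fold" sets the bright group against the higher, per array, of the dim probe's signal and the lowest signal well above background.

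The 58 genes, the lists, the minimum and the tests were chosen with earlier results of these data known. All 58 genes are covered by role; array values are given for called genes, in TT for the 8 largest differences of like sign in both pairs, and between the lines for the extremes of each role. Other named genes were chosen after their values were seen. The steps were tested on simulated data: where probe spreads followed the distribution that limma assumes, large changes were recovered and small ones were not, and unchanged probes had close to the nominal rate of small p-values. The share of unchanged probes among the calls within lines was nonetheless above the threshold set on the adjusted p, and further above it with another distribution of spreads, so that adjusted p-values near the threshold within lines are optimistic. Only 2 arrays per group limit the precision, and the labels do not say that they are separate cultures, though the study's methods call replicates biological. Their methods also give other transfection concentrations than the labels. Alternatives were the block, the intensity minimum, background correction, normalization, the deposited log2 values, an intensity trend, probe averaging and leaving out each pair or control array.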

Additional observations from a re-analysis of the deposited data

How the results depend on the processing

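With pre-miR-375 in Nthy-ori 3-1, the 10 higher and 13 lower genes and 3977 probes called became 0, 0 and 0 with no replicate block, with no expression minimum and with probes kept when well above background on 2 of 4 arrays, and ranged from 0 to 0 without replicate 1 or replicate 2; the smallest adjusted p over all probes was then 0.236, 0.318, 0.0785, 0.0921 and 0.0903, and at an unadjusted p under 0.05 there were 2171, 7257, 7413, 5262 and 5047 probes. The cause was not tested. In the other settings 20 to 23 of the 23 were still called. All 23 kept their direction in every setting run. With no block or another minimum this was fixed beforehand, since the same arrays give the same difference, and with a pair left out the difference is that of the other pair. In TT, the 0 genes and 0 probes called became 3 genes higher and 561 probes with normexp background correction, 1 and 182 with the deposited log2 values, 3 and 444 with the 75th percentile, and 6 and 1182 with an intensity trend; the cause was not tested. With no replicate block, 0 genes were called in TT, and between the lines the 46 called genes were all called. Between the lines the counts stayed within 1.5 times. The calls of KRT14, CDH2, SNAI2, COL1A2, TIMP1 and TWIST1 were lost in at least 1 setting where the gene had a value. With an expression minimum of 6, only 35 of the 46 called genes had a value, all 35 still called, and 22 genes in place of 33 were lower. A gene can reach that minimum only through the line where it is high, so nothing is read from the calls kept there. Sizes moved more: with normexp background correction the folds of all 14 called genes with a bound fell under it, to between 1.41 (KRT17) and 1270-fold (TGFBI), since its offset shrinks the folds of dim probes. Differences that had not passed changed sign as follows. With pre-miR-375, with normexp background correction CDH2 0.0057, DSP 0.0006, with the deposited log2 values CDH2 0.0118, DSP 0.0793, TGFBI 0.0133, with the mean of all probes of a gene CDH2 0.0423, CLDN4 -0.175, DSP 0.0586, ZEB1 0.206, COL6A2 0.113, and over the pairs left out, EPCAM -0.324 to 0.0682, CLDN4 -0.0187 to 0.0985, OCLN -0.247 to 0.0165, DSP -0.0549 to 0.031, TGFBI -0.215 to 0.113, CDH2 -0.0254 to 0.0149, ZEB1 -0.355 to 0.0399. With AntagomiR-375, with the 75th percentile EPCAM -0.0334, with the mean of all probes of a gene KRT8 -0.0484, and over the pairs left out, CLDN7 -0.226 to 0.0452, JUP -0.0592 to 0.315, ZEB1 -0.0283 to 0.0627, SNAI1 -0.245 to 0.255, COL5A1 -0.365 to 0.112, ITGA3 -0.127 to 0.357, COL4A1 -0.298 to 0.0947. Between the lines, with the 75th percentile GRHL2 0.0054, COL3A1 -0.218, with the mean of all probes of a gene KRT8 0.299, and over the control arrays left out, ZEB1 -0.37 to 0.873, CDH11 -0.234 to 0.424, ITGAV -0.0172 to 0.0041, GRHL2 -1.14 to 0.364, COL3A1 -0.0975 to 0.256.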
